A study of Mus musculus with 12 samples.

Results

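The comparison described here is the effect of busulfan in mouse livers that also received alginate oligosaccharides (AOS), that is, BA10 vs A10. Both groups received AOS by gavage at 10 mg/kg every day for 5 weeks. AOS are short chains cut from alginate, a polysaccharide of brown algae. Mice of BA10 also received a single intraperitoneal injection of busulfan at 40 mg/kg the day before AOS began, and mice of A10 received no busulfan. Busulfan is an alkylating drug that crosslinks DNA. All mice were males of the outbred ICR stock (spelled IRC in the labels), 3 weeks old at the start. The RNA was poly(A) RNA of whole liver with 3 libraries per group. Of 17871 genes in the table, 12598 had at least 10 reads in 3 or more of these 6 libraries and were compared. The other groups were A0, which received water, and BA0, which received the same dose of busulfan and then water. These groups entered BA10 vs A10 only through the common scale of the levels, and they are used at the end to set the busulfan effect beside that without AOS.

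DNA damage stabilises the transcription factor p53. p53 raises genes that halt the cell cycle, such as Cdkn1a, and genes that promote cell death, such as Bax. A separate and faster programme is that of the immediate-early genes, such as Fos, Egr1 and Jun. Growth factors, stress and tissue handling switch these genes on within minutes, through the transcription factors CREB and SRF. Damaged proteins raise the chaperones through heat shock factor 1. In the liver, fasting and glucocorticoids raise the genes of glucose output, such as G6pc.

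The 6 libraries held between 16487497 and 18174590 estimated reads. Levels are given as CPM, read counts scaled to the size of the library after TMM normalisation. Hepatocyte markers summed to 128900 to 154400 CPM in A10 and to 136900 to 146400 CPM in BA10, and none of the 15 was at 0. The markers match the liver named in the extraction protocol, whereas the tissue label reads cells. A10 replicate 3 stood apart. Its mean correlation with the other A10 libraries was 0.962, the lowest of the 12 libraries. It was also the A10 library with the highest level of the interferon-stimulated, endoplasmic reticulum (ER) and chaperone genes. The results that rest on it are given with and without it. Leaving out the A10 library with the highest levels of these lists widens their difference from BA10. Calls of chaperone and ER genes without it are therefore no separate support. The labels do not state that the libraries of a group came from separate mice, so the p-values measure the spread between these samples, which may be technical.

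Few genes passed the threshold. By edgeR's quasi-likelihood test with Benjamini-Hochberg adjustment over the 12598 genes, 3 genes rose (0.0238%) and 1 fell (0.00794%) in BA10 compared to A10 at an adjusted p under 0.05, which is 0.0318% in either direction. At an unadjusted p under 0.05, 530 genes were higher (4.21%) and 472 were lower (3.75%). All 3 BA10 libraries lay above all 3 A10 libraries in 843 genes (6.69%), and below them in 860 genes (6.83%). These shares are the background for the lists that follow. The number of calls depended on single libraries: without A10 replicate 3 there were 72 higher and 19 lower genes, and without A10 replicate 2 or without BA10 replicate 1 there was none. Calls given below without A10 replicate 3 are thus from the omission with the most calls, and no list member was called under the latter 2 omissions. DESeq2 called 108 higher and 37 lower genes, among them the 4 genes called by edgeR.

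Lpin1 rose (chromosome 12, 16535669 to 16610966 in mm10). Lpin1 encodes lipin 1, a phosphatidate phosphatase of triglyceride synthesis that also acts with Ppara in the nucleus, and is a p53 target. Its levels were 35.1, 26.2 and 28.4 CPM in A10 replicates 1 to 3, and 138, 119 and 131 CPM in BA10 replicates 1 to 3. The groups did not overlap, and each was tight. The log2 fold change was 2.11 (SE 0.13, adjusted p = 0.00757), and the ratio of the means was 4.32. In the mice without AOS, Lpin1 was at 34.9, 23.8 and 27.0 CPM in A0 and at 23.2, 172 and 51.4 CPM in BA0. The BA0 libraries were widely spread and overlapped A0. In a fit of all 12 libraries, which pools this spread, Lpin1 did not pass the threshold.

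**Figure D1:**
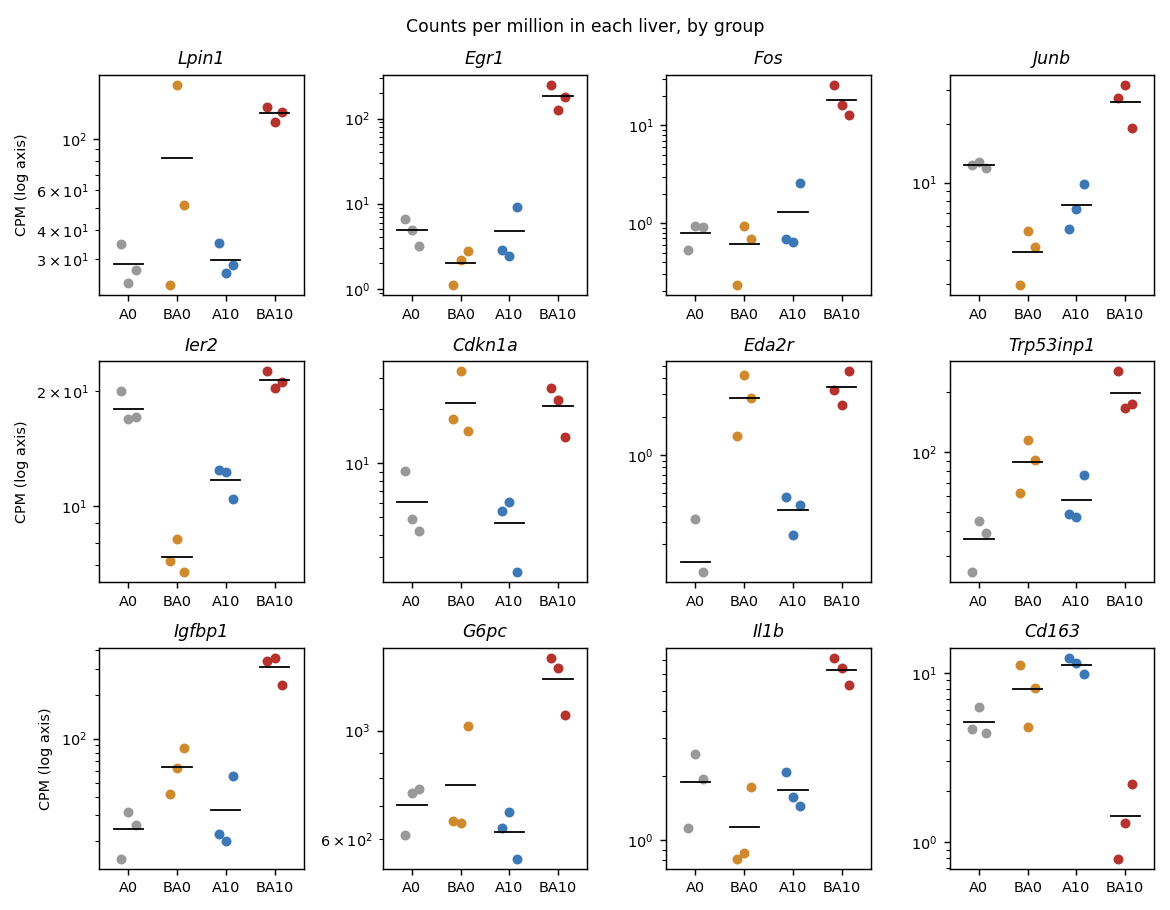
Level of 12 genes in each liver, in CPM on a log axis, for A0, BA0, A10 and BA10. Points are libraries in the order of their replicate numbers and bars are group means; A0 replicate 1 had no Eda2r reads and lies off the axis. Lpin1 was between 119 and 138 CPM in BA10 and between 26.2 and 35.1 CPM in A10, and Cd163 was the gene shown that lay lower in BA10 than in A10.

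The other genes called are gene models that the files list without a symbol. BGIG10090_47629 rose from 2 reads over the A10 libraries to 349 over the BA10 libraries, a ratio of 167 (95% interval 45.9 to 1386, counting error only; adjusted p = 0.0209). BGIG10090_45580 rose from 0 reads to 172, at least 54.9-fold higher against a floor of 3 reads over the group (adjusted p = 0.0474). BGIG10090_47438 fell from 438 reads to 2, a ratio of 229 (62.9 to 1893; adjusted p = 0.00916). Each model passed the read filter only through the group in which it was high, so no other direction could be found. These models were also present in some libraries and nearly absent in others within the groups without AOS. BGIG10090_47438 was at 0, 8.17 and 0.303 CPM in A0 and at 0, 0 and 8.83 CPM in BA0. BGIG10090_45580 was at 0, 5.15 and 0.0606 CPM in A0 and at 0, 2.96 and 0.0573 CPM in BA0. BGIG10090_47629 was at 1.94, 0 and 2.06 CPM in A0 and at 4.54, 0.174 and 7.34 CPM in BA0. BA0 replicates 1 and 3 lay above every A0 library in this model. The A0 and BA0 libraries of each of these models overlapped.

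Immediate-early genes were higher in BA10. Of 34 members tested, 23 lay above A10 in all 3 BA10 libraries and none lay below (background 6.69% and 6.83%), and the list median was a log2 fold change of 0.98, beside 0.00 for all genes (-0.0046). None was called by edgeR. DESeq2 called 16, and edgeR called 8 without A10 replicate 3. Egr1, a zinc finger transcription factor (chromosome 18, 34859823 to 34864984), was at 2.84, 2.41 and 9.24 CPM in A10 and at 251, 126 and 178 CPM in BA10. Every BA10 library was far above A10, and A10 replicate 3 was the highest of its group. The log2 fold change was 5.25 (SE 0.56, adjusted p = 0.0625). Fos, a subunit of the AP-1 factor (chromosome 12, 85473890 to 85477273), was at 0.696, 0.647 and 2.60 CPM in A10 and at 26.2, 16.0 and 12.8 CPM in BA10 (log2 fold change 3.79, adjusted p = 0.0897). The other AP-1 subunits were higher too. Jun was at 12.8, 16.7 and 15.7 CPM in A10 and at 111, 52.8 and 42.6 CPM in BA10 (2.18, SE 0.36, adjusted p = 0.152). Junb was at 5.74, 7.35 and 9.87 CPM in A10 and at 27.2, 32.0 and 19.1 CPM in BA10 (1.76, adjusted p = 0.0897). BA10 replicate 1 was the highest library for Egr1, Fos and Jun but not for Junb.

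Ier2, a nuclear protein of the same programme, was at 12.4, 12.3 and 10.4 CPM in A10 and at 22.5, 20.4 and 21.2 CPM in BA10. The difference was small and the groups were tight (log2 fold change 0.87, SE 0.11, adjusted p = 0.0817). Btg2, an antiproliferative gene that is both immediate-early and a p53 target (chromosome 1, 134075170 to 134079120), was at 2.44, 3.35 and 5.49 CPM in A10 and at 18.1, 23.2 and 14.6 CPM in BA10 (2.30, SE 0.31, adjusted p = 0.0821). Nr4a1, an orphan nuclear receptor, was at 0.638, 0.647 and 1.33 CPM in A10 and at 5.995, 9.67 and 3.80 CPM in BA10 (2.88, adjusted p = 0.127). The 11 members whose libraries overlapped included Myc (-0.53), Klf10 (-0.26) and Socs3, the inhibitor of cytokine signalling.

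Promoter sequences of RefSeq (GRCm38.p6, 250 bases before to 50 after each start) were searched on both strands for the elements through which these programmes are known to act. The sequences below show those elements in members of the immediate-early and chaperone lists, and capitals mark the element. Of the 34 immediate-early genes tested, 27 had a promoter entry. The cAMP response element TGACGTCA, bound by CREB, was in 4 of them (Btg2, Dusp1, Errfi1 and Maff), beside 3.48% of the 9631 tested genes with an entry and 1.79% of all 32851 promoters. The CArG box, bound by SRF, was in 3 of them (Dusp5, Egr2 and Zfp36), beside 1.52% of tested genes. The heat shock element, in which GAA, TTC and GAA follow each other with any 2 bases between them, was in 4 of 18 chaperone genes with an entry (Chordc1, Hspd1, Hspe1 and Hsph1), beside 0.55% of tested genes. The p53 response element was in none of the 6 cell cycle genes of the p53 list, nor in any tested gene within these windows. The windows shown lie before the start of transcription: Btg2 at chr1:134079286-134079345 (minus strand, element 166 bases before the RefSeq start, which differs from the GENCODE start given above), Dusp1 at chr17:26508580-26508639 (minus, 143 bases), Zfp36 at chr7:28379251-28379310 (minus, 58 bases) and Hspe1 at chr1:55088035-55088094 (plus, 89 bases, with 2 overlapping matches).
Btg2: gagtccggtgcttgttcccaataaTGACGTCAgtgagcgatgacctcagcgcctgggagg
Dusp1: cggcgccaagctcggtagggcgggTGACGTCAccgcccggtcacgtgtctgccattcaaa
Zfp36: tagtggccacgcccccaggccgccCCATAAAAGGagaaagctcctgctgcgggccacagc
Hspe1: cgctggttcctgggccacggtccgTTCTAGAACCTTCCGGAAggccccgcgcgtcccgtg
The genes shown did not move alike. Dusp1, a MAP kinase phosphatase, was at 14.7, 16.1 and 20.5 CPM in A10 and at 24.9, 33.8 and 14.3 CPM in BA10, so its groups overlapped. Zfp36, which degrades cytokine transcripts, was at 33.7, 24.6 and 38.7 CPM in A10 and at 74.4, 88.7 and 58.6 CPM in BA10 (1.19, adjusted p = 0.184). Dusp1, Zfp36 and Hspe1 were picked for their elements with the values known.

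**Figure D2:**
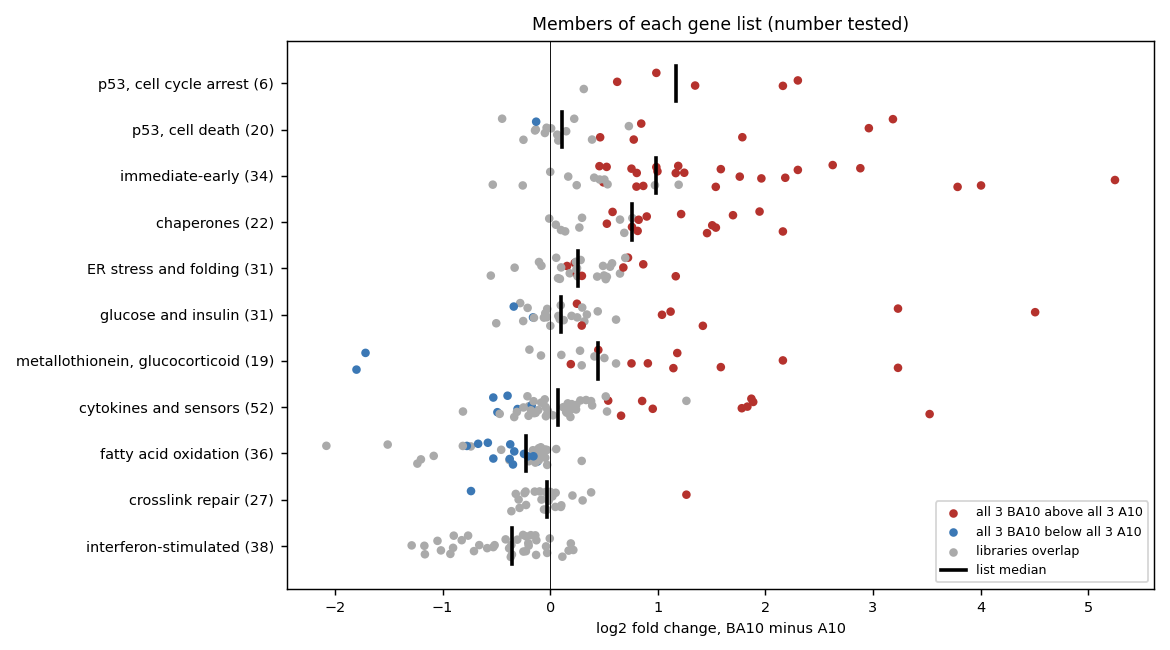
Log2 fold change of each member of 11 gene lists, BA10 minus A10, with the number tested in brackets. Red points are genes with all 3 BA10 libraries above all 3 A10 libraries, blue points the opposite, grey points overlap, and black bars are list medians. The immediate-early and chaperone lists have medians of 0.98 and 0.76, and the fatty acid oxidation list has a median of -0.23.

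Genes that p53 uses to halt the cell cycle were higher in BA10. The list held 12 genes, of which 6 were tested. Of these 6, 5 were above A10 in all 3 libraries, and the list median was 1.17. Btg2 is also counted among the immediate-early genes and Cdkn1a among the glucocorticoid targets, so these lists are not separate. Over all 65 p53 targets tested the median was 0.08. None was called by edgeR, DESeq2 called 4, and edgeR called 3 without A10 replicate 3. Cdkn1a, the cyclin-dependent kinase inhibitor p21, was at 5.45, 6.06 and 2.48 CPM in A10 and at 26.2, 22.4 and 14.1 CPM in BA10. The log2 fold change was 2.16 (SE 0.35, adjusted p = 0.152), a ratio of means of 4.49. Plk3, a polo-like kinase, was at 18.7, 22.6 and 30.4 CPM in A10 and at 73.6, 63.8 and 45.5 CPM in BA10 (1.35, adjusted p = 0.178). Ccng1, cyclin G1, was at 38.8, 35.5 and 34.4 CPM in A10 and at 54.8, 49.1 and 63.7 CPM in BA10 (0.62, adjusted p = 0.220).

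Among the p53 targets of cell death, 6 of 20 were above A10 in all libraries and 1 was below, and the list median was 0.11. The difference was carried by a few genes. Eda2r, a receptor of ectodysplasin A2 that activates NF-kappaB (chromosome X, 97333840 to 97377216), was at 0.464, 0.235 and 0.404 CPM in A10 and at 3.24, 2.48 and 4.52 CPM in BA10. The log2 fold change was 3.19 (SE 0.38, adjusted p = 0.0747). Phlda3, an inhibitor of Akt, was at 0.232, 0.118 and 0.173 CPM in A10 and at 1.10, 1.14 and 1.98 CPM in BA10 (2.96, adjusted p = 0.127). Both genes had fewer than 10 reads in every A10 library and passed the read filter only through BA10. A rise was therefore the only outcome open to them, and they are no support for the list. Trp53inp1, a p53 cofactor (chromosome 4, 11156431 to 11174379), was at 48.9, 47.1 and 76.6 CPM in A10 and at 255, 168 and 174 CPM in BA10 (1.79, SE 0.25, adjusted p = 0.0843). Zmat3 (0.78), Aen (0.85) and Bax (0.46) were separated by smaller amounts. The other targets did not separate as a group. Of the 8 feedback genes 1 was above A10 in all libraries, which was Mdm2, the ubiquitin ligase of p53, at 27.7, 28.3 and 27.7 CPM in A10 and at 36.2, 33.1 and 33.9 CPM in BA10 (0.30, adjusted p = 0.403). Of the 11 targets of DNA repair and nucleotide supply 1 lay above and 1 below.

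Genes of DNA crosslink repair did not separate from A10. Of 27 members tested, 1 was above and 1 below in all libraries, and the median was -0.03. Xrcc3, a gene of recombination repair, was at 2.09, 1.76 and 1.501 CPM in A10 and at 1.35, 0.776 and 1.10 CPM in BA10 (-0.74, adjusted p = 0.622). Chek1, the checkpoint kinase, was at 0.348, 0.235 and 0.924 CPM in A10 and at 1.77, 0.982 and 0.937 CPM in BA10 (1.27, adjusted p = 0.632). Glutathione conjugation is the known route of busulfan clearance. Of the 32 genes of glutathione synthesis and conjugation tested, 1 was above and 1 below, and the median was -0.05. Gstm1, a glutathione transferase with close paralogues, was at 1347, 1445 and 1482 CPM in A10 and at 1402, 1276 and 1245 CPM in BA10 (-0.13, adjusted p = 0.817).

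Chaperones were higher in BA10. Of 22 members tested, 13 were above A10 in all libraries and none was below, with a median of 0.76. None was called by edgeR. DESeq2 called 9 (108 genes higher among all genes). Without A10 replicate 3, edgeR called 5 (72 genes higher among all genes). That replicate had the highest chaperone level of A10, so leaving it out widens the difference. Dnajb1, a heat shock protein 40 (chromosome 8, 83608193 to 83612653), was at 16.9, 27.3 and 40.3 CPM in A10 and at 195, 84.0 and 101 CPM in BA10 (2.16, SE 0.41, adjusted p = 0.220). Bag3, a cochaperone of Hsp70, was at 30.3, 43.8 and 66.1 CPM in A10 and at 175, 107 and 127 CPM in BA10 (1.54, adjusted p = 0.239). Hspa4l was at 29.5, 30.9 and 37.5 CPM in A10 and at 70.9, 51.1 and 60.7 CPM in BA10 (0.90, adjusted p = 0.173). The small heat shock protein Hspb8 was separated by 0.81 (adjusted p = 0.243). Hspe1, the mitochondrial chaperonin 10 whose promoter is shown above, was at 97.3, 79.4 and 73.0 CPM in A10 and at 184, 124 and 117 CPM in BA10 (0.76, adjusted p = 0.353). BA10 replicate 1 was the highest library for Dnajb1, Bag3, Hspa4l and Hspe1. A10 replicate 3 was the highest A10 library for Dnajb1, Bag3 and Hspa4l. Hspa1a and Hspa1b are near-identical copies, so their counts are uncertain.

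Genes of glucose output and insulin signalling were higher in part. Of 31 members, 7 were above A10 in all libraries and 2 were below, with a median of 0.10. Igfbp1, a secreted binding protein of insulin-like growth factors that insulin represses (chromosome 11, 7197782 to 7202546), was at 22.3, 19.9 and 55.5 CPM in A10 and at 339, 354 and 231 CPM in BA10. The log2 fold change was 3.23 (SE 0.42, adjusted p = 0.0817), a ratio of means of 9.44. G6pc, the catalytic subunit of glucose-6-phosphatase (chromosome 11, 101367561 to 101377903), was at 631, 681 and 547 CPM in A10 and at 1405, 1345 and 1077 CPM in BA10 (1.04, SE 0.14, adjusted p = 0.0817). Ppp1r3g, a subunit that directs protein phosphatase 1 to glycogen, was at 0.290, 0.235 and 0.462 CPM in A10 and at 12.9, 7.13 and 3.09 CPM in BA10 (4.51, SE 0.62, adjusted p = 0.0843). It had fewer than 10 reads in every A10 library and passed the filter only through BA10, so only a rise could be found. Irs2, an insulin receptor substrate, was at 25.04, 28.7 and 46.8 CPM in A10 and at 78.3, 82.3 and 58.8 CPM in BA10 (1.12, adjusted p = 0.321).

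Glucocorticoid targets and metallothioneins moved apart within 1 list of 19, in which 9 were above A10 in all libraries and 2 were below (median 0.45). Per1, a repressor of the circadian clock that glucocorticoids raise, was at 5.74, 10.99 and 7.74 CPM in A10 and at 27.8, 23.1 and 22.8 CPM in BA10 (1.59, SE 0.23, adjusted p = 0.0897). Tat, tyrosine aminotransferase, was at 993, 589 and 1264 CPM in A10 and at 2415, 2019 and 2034 CPM in BA10 (1.18, adjusted p = 0.324). The 2 members that were lower were both metallothioneins, which bind zinc and copper. Mt1 was at 40.3, 44.7 and 50.0 CPM in A10 and at 26.3, 11.4 and 3.69 CPM in BA10 (-1.72, SE 0.57, adjusted p = 0.480), and Mt2 by -1.80 on the same scale (adjusted p = 0.458). Of the 19 clock genes 4 were above and 3 below. Per2 was at 7.65, 10.9 and 14.3 CPM in A10 and at 35.2, 17.7 and 31.6 CPM in BA10 (1.36, adjusted p = 0.324), and Nr1d2, the nuclear receptor REV-ERB beta, was at 14.6, 19.4 and 23.3 CPM in A10 and at 12.4, 12.4 and 11.1 CPM in BA10 (-0.68, adjusted p = 0.368).

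Genes of fatty acid oxidation were lower in BA10. Of 36 members tested, 12 were below A10 in all libraries and none was above, and 34 had a negative log2 fold change, with a median of -0.23. None was called by edgeR, and DESeq2 called Ehhadh lower. Ehhadh, the peroxisomal bifunctional enzyme (chromosome 16, 21761287 to 21787807), was at 413, 328 and 330 CPM in A10 and at 251, 207 and 259 CPM in BA10 (-0.58, SE 0.14, adjusted p = 0.332). Ppara, the receptor that drives this programme, was at 140, 184 and 186 CPM in A10 and at 127, 102 and 126 CPM in BA10 (-0.53, SE 0.15, adjusted p = 0.403). Slc25a20, the carnitine carrier of mitochondria, was at 55.2, 51.7 and 58.8 CPM in A10 and at 41.2, 42.7 and 44.1 CPM in BA10 (-0.38, adjusted p = 0.324). Acot1, an acyl-CoA thioesterase with close paralogues, was at 19.9, 17.2 and 22.4 CPM in A10 and at 15.5, 10.7 and 11.4 CPM in BA10 (-0.67, adjusted p = 0.354). A10 replicate 3 was the highest library for the mean level of the list (0.65 on the log2 scale, relative to the 12 libraries), and BA10 replicate 1 (0.21) lay above A10 replicates 1 and 2 (0.11 and -0.05). The median fold change was between -0.32 and -0.14 when each library was left out in turn, and nearest to 0 without A10 replicate 3. Among the genes of fat synthesis and lipid droplets, G0s2, an inhibitor of the lipase Pnpla2, was at 39.4, 33.0 and 20.4 CPM in A10 and at 16.9, 6.57 and 5.01 CPM in BA10 (-1.71, adjusted p = 0.381).

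**Figure D3:**
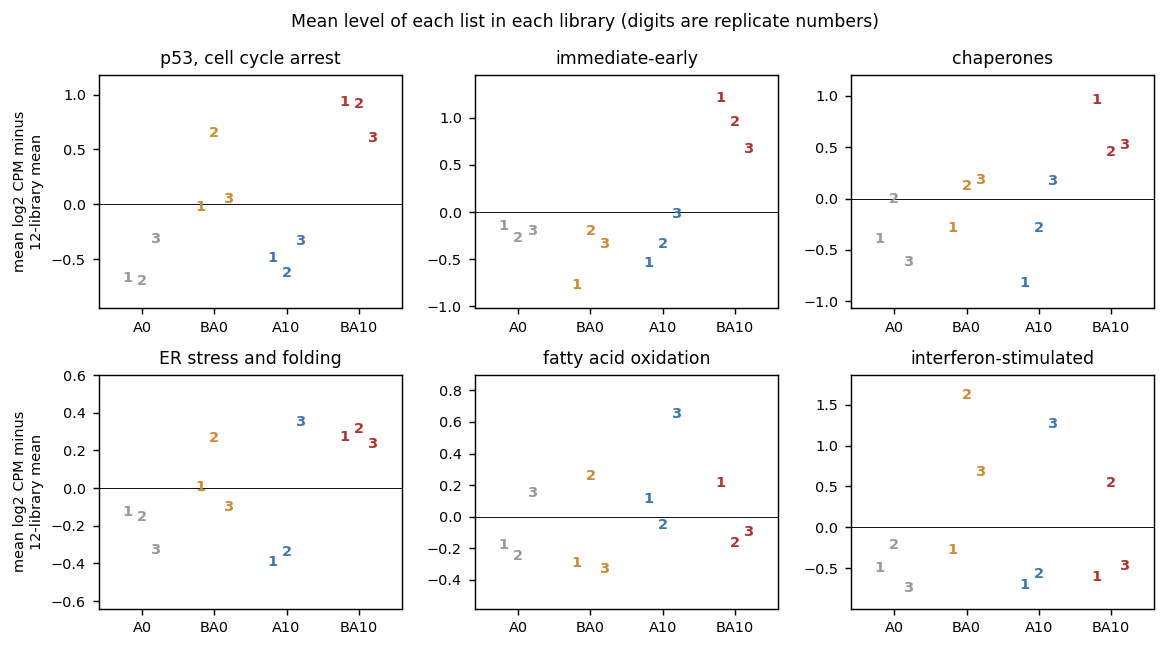
Mean log2 CPM of 6 gene lists in each of the 12 libraries, relative to the mean over all 12; digits are replicate numbers. The immediate-early genes were between 0.67 and 1.21 in BA10 and between -0.54 and -0.02 in A10, whereas the interferon-stimulated genes were at 1.26 in A10 replicate 3, 1.61 in BA0 replicate 2, 0.68 in BA0 replicate 3 and 0.54 in BA10 replicate 2 and below 0 in the other libraries.

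Inflammatory genes were higher for a few cytokines. Of 52 cytokines, chemokines, receptors and sensors, 9 were above A10 in all libraries and 5 were below, with a median of 0.07. Il1b, interleukin 1 beta (chromosome 2, 129364570 to 129371139), was at 2.09, 1.59 and 1.44 CPM in A10 and at 7.10, 6.36 and 5.34 CPM in BA10 (1.87, SE 0.22, adjusted p = 0.0747). Cxcl1, a chemokine for neutrophils, was at 1.39, 0.705 and 2.94 CPM in A10 and at 9.24, 36.9 and 12.4 CPM in BA10 (3.53, SE 0.68, adjusted p = 0.236). The NF-kappaB inhibitors Tnfaip3 and Nfkbia were separated by 1.83 (adjusted p = 0.255) and 0.85 (adjusted p = 0.279). The 16 neutrophil and monocyte markers summed to 7.59 to 13.9 CPM in A10 and to 8.99 to 16.7 CPM in BA10, and Ly6g, Mpo and Camp were at 0 in all 6 libraries. The 38 type I interferon-stimulated genes tested overlapped in every case, with a median of -0.36. Rsad2, an antiviral enzyme, was at 4.64, 3.35 and 15.2 CPM in A10 and at 2.63, 6.15 and 2.42 CPM in BA10. A10 replicate 3 was the high library, and the list median was 0.45 without it.

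Cd163, the scavenger receptor of macrophages for haemoglobin bound to haptoglobin (chromosome 6, 124304656 to 124330527), was lower in BA10. It was at 12.2, 11.4 and 9.87 CPM in A10 and at 0.795, 1.29 and 2.204 CPM in BA10. The log2 fold change was -2.95 (SE 0.33, adjusted p = 0.0671), and limma voom and DESeq2 called it lower. In bulk tissue, fewer cells of a type and less RNA per cell cannot be told apart. The 22 Kupffer cell and macrophage markers summed to 537 to 794 CPM in A10 and to 523 to 729 CPM in BA10, with a median log2 fold change of 0.03 and none at 0. Clec4f, which marks Kupffer cells, was at 57.9, 49.6 and 118 CPM in A10 and at 59.7, 96.9 and 58.6 CPM in BA10. Vsig4, a complement receptor of the same cells, was at 20.5, 15.6 and 26.2 CPM in A10 and at 20.2, 26.7 and 19.6 CPM in BA10. Of the 22 markers 19 overlapped, Cd163 and Slc40a1 were below A10 in all libraries, and Cd14, a coreceptor of lipopolysaccharide, was above (0.66, adjusted p = 0.651). Slc40a1, the iron exporter ferroportin, was at 243, 231 and 202 CPM in A10 and at 162, 199 and 178 CPM in BA10 (-0.33, adjusted p = 0.526).

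Among the markers of other cell types, of 27 endothelial markers, 25 had a positive log2 fold change and 4 were above A10 in all libraries (median 0.29, sums of 447 to 629 CPM in A10 and 595 to 750 CPM in BA10). Of 9 biliary markers tested, 3 were below A10 in all libraries (median -0.24), and Spp1, osteopontin, was at 22.96, 18.5 and 30.1 CPM in A10 and at 10.3, 9.98 and 18.2 CPM in BA10 (-0.89, adjusted p = 0.443). Erythroid and platelet markers summed to 374 to 849 CPM in A10 and to 233 to 568 CPM in BA10, and the 7 tested had a median of -0.82. Their part in the results above was not tested.

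The remaining genes chosen by the smallest p were a mixed set. On the higher side these were Noct, the circadian deadenylase nocturnin, at 10.7, 11.4 and 14.2 CPM in A10 and at 60.4, 36.3 and 34.5 CPM in BA10 (1.85, adjusted p = 0.0817), Ildr2 (2.54, adjusted p = 0.0817) and Banp (1.61, adjusted p = 0.0843). On the lower side Fbxo21, an F-box protein, was at 64.1, 87.6 and 86.9 CPM in A10 and at 36.5, 38.8 and 34.9 CPM in BA10 (-1.12, SE 0.14, adjusted p = 0.0785). Mthfs, an enzyme of folate metabolism, was at 11.9, 18.1 and 14.6 CPM in A10 and at 5.20, 6.41 and 5.23 CPM in BA10 (-1.41, adjusted p = 0.0817). Wwp2, a ubiquitin ligase, was at 28.6, 25.3 and 24.6 CPM in A10 and at 10.8, 12.5 and 14.8 CPM in BA10 (-1.04, adjusted p = 0.0817). The survival gene Bcl2a1a, which has close paralogues, was lower by -2.89 (adjusted p = 0.0747). Inhbe, Fzd7, Pdp2, Zfp395, Dact2, Dyrk2, Zfp292, Adra1a and Pim1 had log2 fold changes between -1.29 and -0.53, with adjusted p between 0.100 and 0.220.

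To see how the busulfan comparison compared without AOS, BA0 vs A0 was fitted apart on the other 6 libraries, and the difference of both effects was tested over the 12 libraries. In BA0 vs A0, 68 of 12531 genes rose (0.543%) and 21 fell (0.168%), and libraries did not overlap in 18.9% and 15.8% of genes. Among the genes called in BA10 vs A10, BGIG10090_47438 and BGIG10090_45580 were not tested there. Lpin1 (adjusted p = 0.177) and BGIG10090_47629 (adjusted p = 0.404) were tested by the same edgeR test and not called. The deviation of each gene in a library from its mean over the 12 libraries was set against gene length. Length accounted for 7.16% and 7.87% of the variation of these deviations in A0 replicates 1 and 2. It accounted for at most 2.84% in the other libraries, and removing this trend left 9 higher and 5 lower genes. These counts also turned on single libraries, from 0 higher and 1 lower without A0 replicate 2 to 560 higher and 425 lower without A0 replicate 3. Over the 12368 genes tested in both, 263 were higher without overlap in both (32.1% of those of BA10 vs A10 and 11.2% of those of BA0 vs A0), and 174 were lower in both (20.7% and 8.87%). Another 79 were higher with AOS and lower without, and 94 the reverse.

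Some p53 targets were higher after busulfan both with and without AOS. Of the 65 p53 targets, 15 were above without overlap in BA10 vs A10 (median 0.08), beside 6.69% of all genes. In BA0 vs A0, 22 were above (median 0.08), beside 18.9% of all genes, so the 2 counts have unlike backgrounds. Eda2r was at 0, 0.314 and 0.121 CPM in A0 and at 1.40, 4.23 and 2.81 CPM in BA0 (log2 fold change 4.18, adjusted p = 0.0525). It had fewer than 10 reads in every A0 library, so here too it passed the filter only through the busulfan group. Cdkn1a had a mean of 6.06 CPM in A0 and 21.8 CPM in BA0 (1.84, adjusted p = 0.0637, beside 2.16 with AOS). Ccng1 rose without AOS (1.06, adjusted p = 0.0429, beside 0.62 with AOS). Plk3 was at 42.1, 29.4 and 51.2 CPM in A0 and at 16.7, 43.0 and 26.4 CPM in BA0, so its groups overlapped (-0.52, adjusted p = 0.348, beside 1.35 with AOS). The difference between the settings did not pass the threshold for Eda2r, Cdkn1a, Ccng1 or Plk3 (adjusted p between 0.177 and 0.814). Outside the p53 list, Banp rose without AOS (1.69, adjusted p = 0.0462, beside 1.61 with AOS).

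The immediate-early genes had medians of opposite sign. The median was -0.35 in BA0 vs A0, beside 0.98 in BA10 vs A10. In BA0 vs A0, 5 of 33 were above and 12 below in all libraries, and 3 fell. The background there was 18.9% above and 15.8% below, higher than the 6.69% and 6.83% of BA10 vs A10. The difference with minus without AOS passed the threshold in 7 of 12979 genes (0.0539%), and 4 of these were immediate-early genes. Without A0 replicate 3 it passed in 103 higher and 148 lower genes. Ier2 was at 20.0, 16.8 and 17.1 CPM in A0 and at 7.16, 8.17 and 6.71 CPM in BA0, so it fell without AOS (-1.30, adjusted p = 0.0265), and the difference was 2.16 (adjusted p = 4.0e-04). Egr1 was at 6.69, 4.84 and 3.15 CPM in A0 and at 1.11, 2.203 and 2.75 CPM in BA0, and the difference was 6.52 (adjusted p = 0.00541). Junb fell without AOS (-1.49, adjusted p = 0.0462), with a difference of 3.25 (adjusted p = 0.00541), and Jund, a related subunit of AP-1, with a difference of 1.10 (adjusted p = 0.0297). Cd163 was at 4.68, 6.28 and 4.42 CPM in A0 and at 11.1, 4.75 and 8.08 CPM in BA0, with a difference of -3.58 (adjusted p = 0.0238). The remaining 2 genes were the lung genes Scgb1a1 and Sftpc, which were nearly absent in A0. Scgb1a1 was at 3.65, 5.996 and 4.73 CPM in A10, at 5.26, 4.45 and 5.07 CPM in BA10 and between 0 and 0.121 CPM in A0. A10 itself was lower than A0 in Ier2, with means of 11.7 and 18.0 CPM, in Junb (7.65 and 12.3) and in Jund (23.5 and 36.7). In Cd163 A10 was higher than A0 (11.15 and 5.13), and in Egr1 the means were alike (4.83 and 4.89). The mean of Jund in BA10 was 33.8 CPM, below that of A0. A10 vs A0 was not tested.

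**Figure D4:**
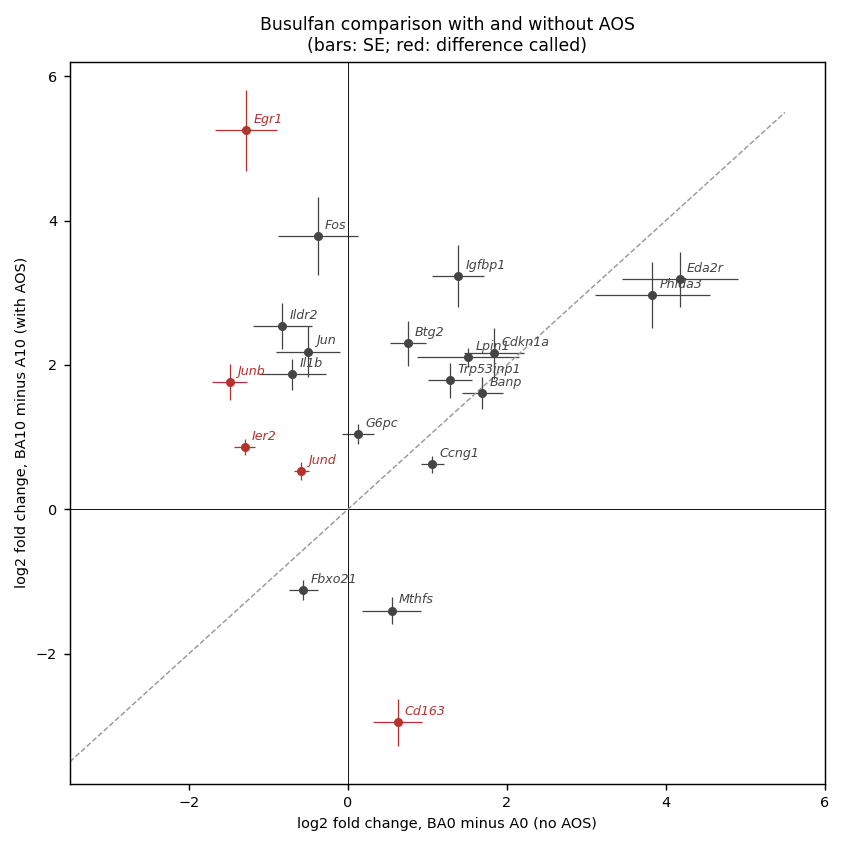
Log2 fold change after busulfan without AOS (BA0 minus A0, x axis) and with AOS (BA10 minus A10, y axis) for named genes; bars are SE and the dashed line marks equal values. Red marks the genes shown whose difference was called. Egr1, Ier2, Junb and Jund lie to the left of 0 and above 0, and Cd163 lies below 0. Banp (1.69 without AOS and 1.61 with AOS) lies near the line. Eda2r (4.18 without AOS and 3.19 with AOS) lies below it.

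Of the transcripts and proteins measured in the study, 20 of 23 were tested here, all as RNA. The study focused on A0, BA0 and BA10, not on BA10 vs A10. It measured Sod1, Gpx1, Stat3, Trib3, Il6ra and Tgfb1 as protein, so the values below are no check of its results. Egr1 and Jun have been described. Tgfb3 was at 0.348, 0.294 and 0.346 CPM in A10 and at 1.65, 0.724 and 1.10 CPM in BA10 (1.78, adjusted p = 0.332), and Ccl2, a chemokine for monocytes, was at 0.0580, 0.176 and 0.635 CPM in A10 and at 1.77, 0.827 and 0.716 CPM in BA10 (1.89, adjusted p = 0.584). Tgfb3 had fewer than 10 reads in every A10 library and passed the filter only through BA10. Ifnar2, a subunit of the type I interferon receptor, was at 59.0, 64.1 and 62.6 CPM in A10 and at 52.0, 52.9 and 45.8 CPM in BA10 (-0.30, adjusted p = 0.426). These were the 5 transcripts whose libraries did not overlap. The other 15 overlapped, among them Sod1 (0.01, adjusted p = 0.996), Gpx1 (0.02, adjusted p = 0.987), Stat3 (0.02, adjusted p = 0.975), Trib3 (0.52, adjusted p = 0.769), Il6ra (-0.20, adjusted p = 0.814) and Tgfb1 (0.16, adjusted p = 0.907).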

How the data were processed

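Poly(A) RNA of mouse liver was sequenced in 12 libraries, 3 in each of A0, A10, BA0 and BA10. The expected counts and RPKM values were deposited by the authors, who aligned reads with SOAPaligner to mm10. Counting tool, annotation and strand setting: not given in the sources used here, so overlapping and antisense genes may share reads. RPKM was used only to derive gene length. A further 8 columns hold means over groups and were left out. Counts, of which 78.6% to 80.3% were whole within 1e-06, were rounded. R 4.3.3, edgeR 4.0.16, limma 3.58.1, DESeq2 1.42.0 and Python 3.11.15 were used.

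The test was edgeR's quasi-likelihood test after TMM scaling (factors 0.942 to 1.041), with 4 residual degrees of freedom, a prior of 3.31 and a biological coefficient of variation of 0.202. Genes needed 10 reads in 3 libraries. A gene under 10 reads in every library of 1 group passed only through the other group, which fixed the direction of its difference. The threshold was a Benjamini-Hochberg adjusted p of 0.05, two-sided, without a replicate block. CPM values share 1 TMM scale over the 12 libraries. Gene lists (49 lists) were described by counts and medians only. Members and lists were chosen with earlier results of these data known. Named genes were up to 15 higher and 15 lower genes with the smallest p among those without overlap and with a mean of at least 1 CPM, up to 4 members of each list with the smallest p, and the transcripts of the study. Genes outside this rule (Dusp1, Zfp36, Hspe1, Jund, Nr4a1, Junb, Aen, Bax, Myc, Klf10, Socs3, Gstm1, Mt1, Mt2, Clec4f, Vsig4, Creld2, Hyou1 and Trim25 among them) were picked with their values known. Coordinates are from GENCODE M21 (mm10) through Entrez identifiers. Alternatives were DESeq2, limma voom, other scalings and filters, fits with 9 or 12 libraries, robust fitting, a replicate block, removal of a gene length trend, and leaving out each library. The edgeR, DESeq2 and voom fits of BA10 vs A10 were tested on simulated data. The reads carry no molecular identifiers that the sources name, so intervals cover counting error only.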

Additional observations from a re-analysis of the deposited data

Results flagged for a closer look

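The busulfan effect differed with and without AOS in 7 genes by edgeR's test of the difference over 12 libraries, given here as the log2 fold change of BA10 vs A10 minus that of BA0 vs A0. The difference was 2.16 for Ier2, 3.25 for Junb, 6.52 for Egr1 and 1.10 for Jund, 4 immediate-early genes that were higher in BA10 than in A10 and lower in BA0 than in A0. It was -3.58 for Cd163. It was -6.06 for Scgb1a1 and -8.47 for Sftpc, lung genes that were nearly absent in A0 and present in the other 3 groups. Sftpc was at 0 in all A0 libraries and Scgb1a1 nearly so, so these fitted values depend on the prior count and are not bounds. Groups of 3 libraries are too small for a test of single outlying libraries.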

How the results depend on the processing

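For BA10 vs A10, DESeq2 called 108 higher and 37 lower genes (adjusted p was NA for 741 genes), a minimum of 1 read 19 and 6, and 1 fit of all 12 libraries 12 and 4, which held 0 of the 4 genes called. Leaving out only A0 gave 1 and 0, limma voom called 2 lower, and an adjusted p of 0.001 with a log2 fold change of 1 gave 0 and 0. The replicate block gave 0 and 0, also with the length trend removed. Same-numbered A10 and BA10 libraries had correlations of their deviations of 0.097, -0.044 and -0.0046. Those of unlike numbers lay between -0.185 and 0.190. So few values cannot decide whether the numbers pair the samples. Leaving out 1 library gave 0 to 72 higher and 0 to 19 lower genes. The highest counts came without A10 replicate 3, and the call of Lpin1 was lost without A10 replicate 2 (adjusted p = 0.0519) and without BA10 replicate 1 (adjusted p = 0.0653). Its adjusted p reached 0.297 with 9 libraries, while its log2 fold change stayed between 2.02 and 2.24.

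For BA0 vs A0, DESeq2 called 645 and 517 genes, the block 0 and 0, and removal of the length trend 9 and 5. Leaving out 1 library gave 0 to 560 higher and 1 to 425 lower genes, the highest without A0 replicate 3. For the difference with minus without AOS, DESeq2 called 168 and 104, and leaving out 1 library gave 3 to 103 and 2 to 148, again with the highest counts without A0 replicate 3. The median of the p53 cell cycle genes was 0.98 to 1.46 without 1 library. Log2 fold changes near 0 changed sign: Sod1 was -0.0199 with upper-quartile factors, -0.0001719 with the block, -0.024 with the length trend removed and -0.0279 with both, Gpx1 was -0.0095 with upper-quartile factors and Scgb1a1 was -0.000221 with the length trend removed. Without 1 library these and 2 more genes ranged across 0: Sod1 from -0.101 to 0.0905, Gpx1 from -0.0454 to 0.0508, Scgb1a1 from -0.129 to 0.225, Tgfb1 from -0.0231 to 0.329 and Stat3 from -0.0484 to 0.0912. The causes were not tested. With 3 libraries per group and 4 residual degrees of freedom, a p that misses the threshold does not show that the groups were equal.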

Other observations

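The result for genes of ER stress and folding turned on A10 replicate 3. With all libraries 8 of 31 were above A10 without overlap, with a median of 0.25 and none called. Without A10 replicate 3, edgeR called 7 higher (Hspa5, Herpud1, Dnajb9, Hyou1, Creld2, Manf and Syvn1), with a median of 0.52. Creld2, an ER chaperone, was at 12.5, 12.6 and 86.2 CPM in A10 and at 63.4, 54.7 and 57.4 CPM in BA10. Hyou1, a chaperone of the same compartment, was at 84.5, 79.5 and 311 CPM in A10 and at 228, 222 and 261 CPM in BA10. A10 replicate 3 exceeded the BA10 libraries in both genes. Pck1, the enzyme that starts glucose synthesis, was at 610, 601 and 1875 CPM in A10 and at 1791, 1636 and 1310 CPM in BA10.

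Trim25, a ubiquitin ligase of antiviral signalling, was at 39.1 and 38.2 CPM in A10 replicates 1 and 2, at 2.42 CPM in A10 replicate 3, and between 0.201 and 0.815 CPM in the 9 libraries of the other groups. No cause was tested.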
